A study of Mus musculus with 16 samples.

Results

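Chromatin accessibility in the kidney was compared between fed and fasting mice with ATAC-seq, which marks open DNA by the sites where a transposase, Tn5, can cut and tag it. The comparison rested on 2 of the 16 libraries of the series, 1 pooled kidney library a state, chosen by their tissue label. A region was a distinct interval of a deposited peak list with its smallest p kept, and the set of a state held the regions with a −log10 q of at least 2. The fed kidney set held 165716 regions and the fasting kidney set 168856, which together were 334572 of the 2640607 regions over all sets of the series. A fasting-only region was in the fasting set with no deposited fed kidney peak overlapping it by 1 bp, and a fed-only region was the reverse.

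Male C57BL/6 mice, acquired at 12 weeks of age and kept on chow, were either fed freely or fasted for 24 h. For each tissue and state, frozen tissue of 3 mice was ground and pooled before nuclei were taken. The same mice gave all 8 tissues of a state. With 1 library a state there was no replicate, so differences between the kidney libraries carry counting intervals only, and differences among mice, pools or library preparations cannot be told apart from the effect of the fast. In a whole kidney, fewer cells of a type and less open chromatin per cell also cannot be told apart.

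The kidney cortex makes glucose during a fast, mainly in the proximal tubule, from lactate, glutamine and glycerol. Glutamine breakdown supplies both carbon for this pathway and the ammonium that buffers the acid load of ketone bodies. Proximal tubule cells burn fatty acids, and the nuclear receptor PPARA switches on genes of lipid oxidation and ketone body synthesis when fatty acids arrive. Glucocorticoids and FOXO factors drive a further group of fasting genes through the glucocorticoid receptor and through forkhead sites.

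The following regions are shown first because the results below turn on their genes or on the motifs in them. Each sequence is the 201 bp centred on the fasting or fed summit, on the plus strand, from the RefSeq copy of GRCm38, with coordinates counted from 1. Capitals mark motif matches. The 4 motifs marked here were the glucocorticoid receptor palindrome (GNACA and TGTNC with 3 bases between), the PPAR/RXR direct repeat (AGGNCA repeated after 1 base, either strand), the E-box (CACGTG) and the forkhead site (TGTTTAC, either strand). A match is a description of the letters and not evidence that a factor binds there.
The first 3 had at least 2-fold more tags in fasting and hold the glucocorticoid receptor palindrome. They lie in an intron of Fkbp5, in an intron of Cuedc1 and between genes near Trim2. The Cuedc1 region holds 2 palindromes and a PPAR/RXR repeat.
Fkbp5 (chr17:28420147-28420347): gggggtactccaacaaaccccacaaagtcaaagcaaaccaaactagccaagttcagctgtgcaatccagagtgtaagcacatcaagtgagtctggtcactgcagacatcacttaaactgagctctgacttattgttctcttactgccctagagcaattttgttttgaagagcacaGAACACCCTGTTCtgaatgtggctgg
Cuedc1 (chr11:88113622-88113822): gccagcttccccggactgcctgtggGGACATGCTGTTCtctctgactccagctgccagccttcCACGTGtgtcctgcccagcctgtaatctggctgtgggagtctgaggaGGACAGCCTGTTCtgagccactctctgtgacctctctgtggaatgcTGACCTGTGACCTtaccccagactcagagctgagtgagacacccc
Trim2 (chr3:84325047-84325247): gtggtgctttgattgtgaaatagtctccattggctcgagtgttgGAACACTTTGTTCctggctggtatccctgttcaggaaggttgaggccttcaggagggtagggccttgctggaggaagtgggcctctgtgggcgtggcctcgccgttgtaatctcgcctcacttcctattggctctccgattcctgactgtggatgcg
The next pair also had at least 2-fold more tags in fasting. The intergenic region whose nearest protein-coding start is that of Ptpn1 holds a PPAR/RXR repeat at its summit. The intergenic region near Pck1 belongs to a locus described below that had more tags in fasting, and holds none of the 10 motifs searched.
Ptpn1 (chr2:167877337-167877537): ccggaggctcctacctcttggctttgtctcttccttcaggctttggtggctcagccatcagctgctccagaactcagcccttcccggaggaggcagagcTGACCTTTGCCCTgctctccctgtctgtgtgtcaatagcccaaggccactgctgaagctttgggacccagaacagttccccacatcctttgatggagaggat
Pck1 (chr2:173170750-173170950): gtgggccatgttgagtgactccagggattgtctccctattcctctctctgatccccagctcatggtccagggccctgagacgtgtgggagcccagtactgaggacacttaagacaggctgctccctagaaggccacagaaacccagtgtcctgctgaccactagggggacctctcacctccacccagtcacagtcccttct
The last pair had at least 2-fold more tags in fed kidney and lay 29811 bp from the start of Kap and 26513 bp from that of Idi1. Repeat-masked bases make up 65.7% of the Idi1 sequence.
Kap (chr6:133883473-133883673): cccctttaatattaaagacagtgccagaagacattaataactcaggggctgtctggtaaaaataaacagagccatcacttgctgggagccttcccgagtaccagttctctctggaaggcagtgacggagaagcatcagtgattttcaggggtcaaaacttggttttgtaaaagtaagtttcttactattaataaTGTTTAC
Idi1 (chr13:8913482-8913682): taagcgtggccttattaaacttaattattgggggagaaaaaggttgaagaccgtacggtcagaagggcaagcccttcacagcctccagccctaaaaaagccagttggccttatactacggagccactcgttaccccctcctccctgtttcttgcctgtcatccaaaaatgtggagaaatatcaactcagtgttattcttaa

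Both kidney libraries carried the markers of kidney epithelium. The promoter of Umod, which encodes the uromodulin secreted by the thick ascending limb, had a peak of 198 tags in fed and 188 in fasting, at the 92.0 and 91.6 percentile of its list by p. The promoter of Slc34a1, the phosphate cotransporter of the proximal tubule, had 335 tags in fed and 239 in fasting, at the 95.01 and 91.4 percentile. All 15 proximal tubule promoters on the marker list had a peak, with a median percentile of 84.4 in fed and 83.1 in fasting. Of 7 leukocyte promoters 4 had a peak, with a median percentile of 24.8 in fed and 16.7 in fasting. The strongest was Csf1r, a macrophage receptor gene, at 80.2 and 81.0 (136 and 119 tags), and Cd79a, Cd3e and Itgam had no peak. Of 7 adrenal cortex promoters, Nr5a1 (80.5 and 75.9) and Star (44.2 and 44.1) had a peak, while Cyp11b1, Cyp11b2, Cyp11a1, Mc2r and Cyp21a1 had none in either state. Of 6 adipocyte promoters, Plin1 (97.1 and 95.2), Cfd (86.2 and 86.9), Cidec and Lep had a peak, and Adipoq and Ucp1 had none. The part of these cell types in the results was not tested.

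The libraries were almost equally deep by the only measure the lists give, the number of tags expected at random, which was 4.67 in fed and 4.64 in fasting. Each list ended close to 300000 rows and not at the q threshold. The fasting list reached weaker peaks, with a lowest −log10 p of 4.41 against 5.07 in fed. The median region of the fed set had 45 tags at its summit and a fold enrichment of 4.48, against 40 tags and 4.08 in fasting. Counts of state-only regions depend on where each list ends, so they are given below also with both lists cut at the same p.

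The open chromatin of fed and fasting kidney was largely shared, and what was seen in 1 state was mostly weak. Fasting-only regions numbered 34907, or 20.7% of the fasting set (95% exact binomial interval 20.5 to 20.9), and fed-only regions 31269, or 18.9% of the fed set (18.7 to 19.1). These intervals cover counting error only. With both lists cut at the same p the order reversed, with 25322 fasting-only and 35529 fed-only regions. At a −log10 q of at least 6 it was also reversed, with 6061 and 10311. In the 7 other tissues the state-only share of a set ran from 19.2% to 49.8%.

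Rank is the percentile of a region's −log10 p within its set. Below rank 10, 64.9% of fasting regions and 58.9% of fed regions were state-only. Between ranks 50 and 60 the shares were 4.31% and 5.30%. Above rank 80, 2 of 33772 fasting regions and 6 of 33144 fed regions were state-only. Above rank 90 there were 0 of 16886 and 0 of 16572, with exact upper limits of 0.0218% and 0.0223%.

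**Figure D1:**
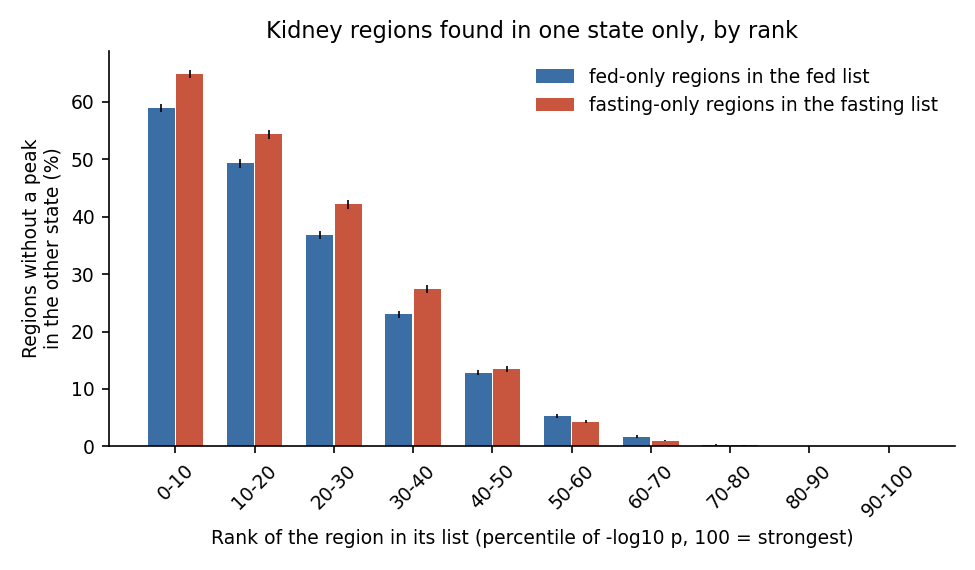
Share of regions without a peak of the other state (y axis, percent) by steps of 10 in the rank of −log10 p within each kidney set (x axis), for the fed and the fasting library, with 95% exact binomial intervals. The share fell from 64.9% (fasting) and 58.9% (fed) below rank 10 to 0 above rank 90.

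State-only regions were narrow and had few tags. Fasting-only regions had a median of 21 tags and a width of 122 bp, against 50 tags and 267 bp in shared fasting regions. Fed-only regions had 23 tags and 132 bp, against 55 tags and 274 bp. A single summit was called in 93.3% of fasting-only and 92.1% of fed-only regions. A promoter region was one with its summit within 3000 bp of an annotated start. Its share was 27.6% (27.1 to 28.0) in fasting-only and 27.4% (26.9 to 27.9) in fed-only regions, against 36.8% and 37.1% in shared regions. The difference between fasting-only and fed-only regions, 0.14 percentage points with an interval of 0.681 on either side, was within counting error. At a −log10 q of at least 6 it was 2.48 points with an interval of 1.44 on either side.

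Txnip, Sgk1 and Foxo1 were among the genes nearest to the 10 strongest fasting-only regions. The highest of all, at rank 81.8 with 274 tags, was 1611 bp from the start of Txnip, in a UTR of this gene. Txnip encodes a brake on glucose uptake, and the nearest fed peak, 703 bp away, had 64 tags. A region of 130 tags at rank 79.8 lay 4079 bp from the start of Sgk1 (chr10:22000154-22000769), the kinase through which aldosterone and glucocorticoids raise epithelial sodium channel activity. The nearest fed peak lay 3960 bp away with 131 tags. A region of 70 tags between genes had the start of Foxo1 as its nearest protein-coding start, at 311869 bp. A region of 57 tags was closest to Max, at 123986 bp. Wnt9a, St3gal1, Banp, Ccrl2 and Pik3c2g were nearest to regions of 63 to 73 tags, with starts from 16068 bp (Pik3c2g) to 247290 bp (St3gal1) away. The Kcnip2 start carried a fasting-only region of 123 tags, 266 bp from a fed peak of 269 tags.

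Gpx3 and Igf1 were among the genes nearest to the 10 strongest fed-only regions. The highest, at rank 84.4 with 85 tags, was 362633 bp from 4931417E11Rik, and the next, with 79 tags, 299704 bp from 1700009N14Rik. Gpx3, the secreted glutathione peroxidase made by the proximal tubule, had a fed-only region of 216 tags in an intron, where 55.7 were expected from the surroundings. The nearest fasting peak lay 2742 bp away with 259 tags. An intron of Igf1, which encodes insulin-like growth factor 1, held a fed-only region of 68 tags. Cep164, Pcsk2, Sugct, Icos, Adgrl3 and Gramd1b were nearest to regions of 66 to 79 tags, with starts from 2529 bp (Icos) to 509357 bp (Sugct) away.

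Regions with a peak in both lists were compared by the tags at their summits. The kidney sets merged into 193146 regions, of which 126970 had a peak in both lists and 105495 reached 30 tags in the higher library. The log2 ratio of fasting over fed tags was centred on its median over the shared regions. The spread of this ratio was 0.42 (SD) in regions of 15 to 30 tags, where counting error alone gives 0.43. It was 0.46 against 0.32 at 30 to 60 tags, 0.37 against 0.23 at 60 to 120, and 0.16 against 0.11 above 240. A shared region needs a listed peak in both states, and listed peaks had at least 16 tags in fed and 15 in fasting. At 15 to 30 tags this cuts off large ratios, so the spread there cannot be set against counting error. The spread above counting error cannot be split into the fast, the mice and the library with 1 library a state.

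At least 2-fold more tags were found in fasting in 978 regions (0.927%) and in fed in 1768 (1.68%). The excess on the fed side was in weak regions. There were 541 fed and 194 fasting regions at a mean level of 15 to 30 tags, where large ratios are cut off, and 1016 and 511 at 30 to 60 tags. At 60 to 120 tags the counts were 204 and 234, and at 120 to 240 tags they were 7 and 38. The median log2 ratio also rose with the level, from −0.06 at 15 to 30 tags to 0.05 at 120 to 240. The counts and ratios given here are not corrected for this trend, which goes the same way as the change in the excess. Scaling by the random background in place of the median gave 673 fasting and 2446 fed regions. Promoters made up 23.4% of the 2-fold fasting regions and 18.3% of the 2-fold fed regions, against 39.4% of all regions tested.

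Cyp4a31, Fkbp5 and Txnip were among the genes nearest to the 10 regions with the largest ratio in fasting. A region near Cyp4a31, of the fatty acid omega-hydroxylase family, had 21 tags in fed and 103 in fasting, a log2 ratio of 2.39. The intronic Fkbp5 region shown above had 36 and 146 tags, a log2 ratio of 2.12 (exact interval 1.58 to 2.69), and moved from rank 28.9 to 85.1. FKBP5 is a cochaperone that binds the glucocorticoid receptor complex and is a classical target of the receptor. A region 2038 bp from the start of Txnip had 64 and 259 tags, a log2 ratio of 2.11. It belongs to the same stretch as the fasting-only region named above. A region 35622 bp from the start of Abcc4, an organic anion exporter, had 23 and 96 tags. Zfp36l2, Sept14, Ell2 and Sp3 were nearest to further regions of this group, with 17 to 25 tags in fed and 73 to 100 in fasting. Their starts lay from 683 bp (Sept14) to 200141 bp (Sp3) away.

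On the fed side, Slc7a12 and Prok1 were among the genes nearest to the 10 regions with the largest ratio. Slc7a12, an amino acid transporter gene, had a region at its start with 85 tags in fed and 18 in fasting, a log2 ratio of −2.14, and a far region with 123 and 23. Prok1, which encodes a secreted prokineticin, had 224 and 47 tags 16 bp from its start, a log2 ratio of −2.15. A region of 91 and 17 tags had the start of Rapgef5 as its nearest protein-coding start, at 235463 bp. Efr3a, Stx16, Akap14, Gtdc1, Cdh18 and Olfr1505 were nearest to the other fed-higher regions of this group. Their starts lay from 3772 bp (Akap14) to 937735 bp (Cdh18) away, and the region assigned to Gtdc1 lay in an intron of Arhgap15.

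To ask which genes moved over their whole surroundings, the tags of all shared regions within 50000 bp were summed for each of 7562 genes with at least 5 such regions. These sums, called loci here, had an SD of 0.16 in log2 ratio, and their central 90% lay between −0.27 and 0.24. In fasting, 13 loci (0.172%) were at least 1.5-fold higher, and in fed 22 (0.291%). With background scaling the split was 8 and 43 loci, the median of all loci moved by −0.07, and 8 of the 13 and 22 of the 22 were still called.

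Pck1 and Slc38a3, genes of gluconeogenesis and glutamine entry, were among the 13 fasting-higher loci. Pck1, the enzyme that commits carbon to gluconeogenesis, had 1673 and 2582 tags over 16 regions, a log2 ratio of 0.71 (0.62 to 0.80), with 16 of 16 regions higher. Slc38a3, the basolateral glutamine transporter of the proximal tubule, had 421 and 621 tags, a log2 ratio of 0.64, with 7 of 7 regions higher. Every shared region of both loci was above 0 after centring, and 1 region of Pck1 had 26 tags in each state.

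Vnn1 and Txnip were also among them. Vnn1, a pantetheinase and known PPARA target, had 380 and 612 tags, a log2 ratio of 0.77, in 6 of 6 regions. Txnip had 974 and 1572 tags, a log2 ratio of 0.77, with 9 of 9 regions above 0 after centring, among them a region with 31 and 29 tags. Gm16253, which neighbours Txnip on chromosome 3, had 649 and 1085 tags, a log2 ratio of 0.82. Cyp4a31 (0.64), Acot5 (0.62), an acyl-CoA thioesterase, Mgst1 (0.63), a glutathione transferase, Rdh16f2 (0.66), Ugt1a10 (0.67), Gm10842 (0.73) and Cfap53 (0.62) were also in the group. Each region was given to the nearest protein-coding start only, so a region between clustered genes such as the Cyp4a, Acot and Ugt1a families may act on a neighbour.

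Keg1, a kidney gene of the glycine acyltransferase family, was the most extreme fed-higher locus. It had 1431 tags in fed and 612 in fasting over 12 regions, a log2 ratio of −1.14, and 12 of 12 regions were lower in fasting. The region at its start was at −0.24 (189 and 150 tags), while the 11 others, 5.99 to 26.7 kb downstream, lay past 2-fold. Pde6d followed at −1.02 (319 and 149 tags). Sult3a2, a sulfotransferase gene (−0.76), Ces3b, a carboxylesterase gene (−0.71), Cyp4f15 (−0.67) and Slco1a1, an organic anion transporter of the proximal tubule (−0.62), were on the same side. Prss16 (−0.81), Col6a6 (−0.78), Anks1b (−0.73), Prok1 (−0.71), Gm9780 (−0.70) and AI481877 (−0.68) completed the lowest values. The remaining fed-higher loci lay between −0.66 and −0.59.

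**Figure D2:**
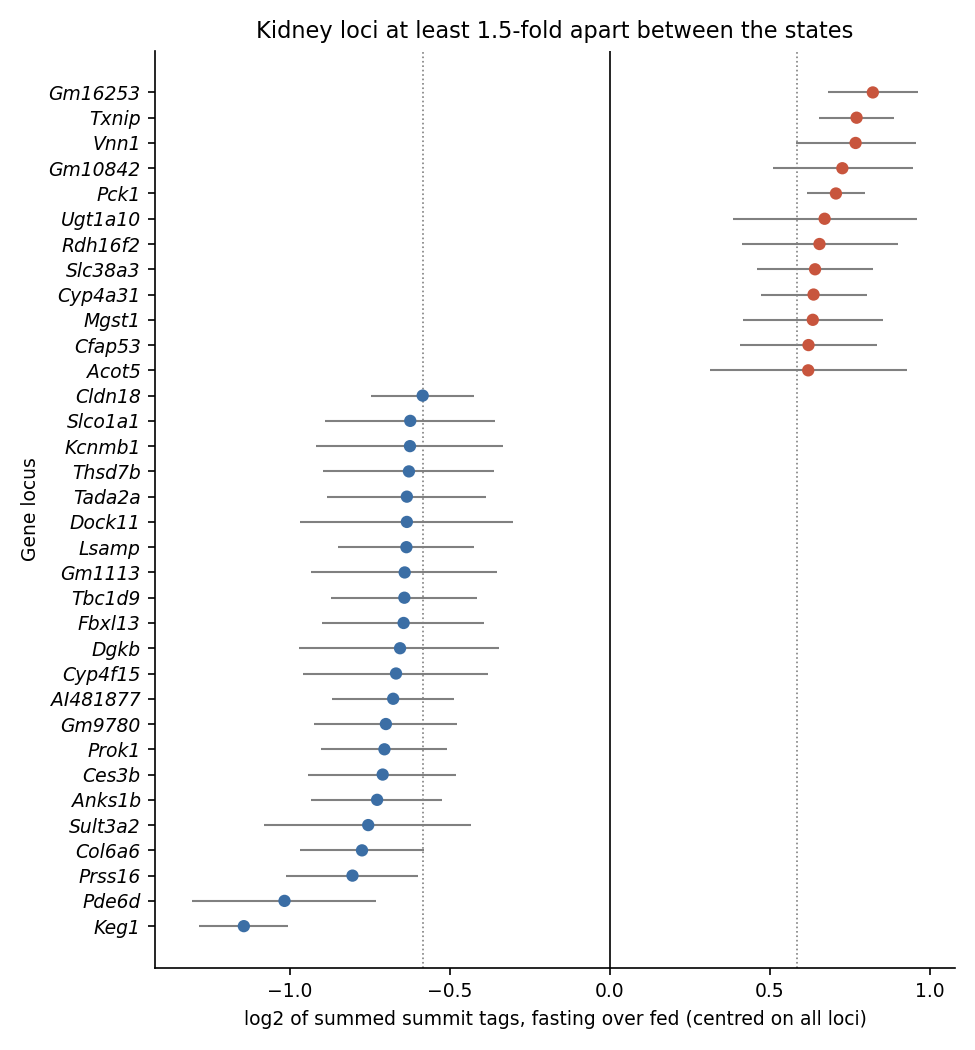
Reported gene loci at least 1.5-fold higher in 1 kidney state, with the log2 ratio of fasting over fed tags summed over shared regions within 50000 bp (x axis, centred on the median of 7562 loci) and exact counting intervals as bars, dotted lines at 1.5-fold. The values run from −1.14 for Keg1 to 0.82 for Gm16253.

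Within a locus the gain was spread unevenly. At Pck1 the 16 regions ran from 0.10 to 1.38 in log2 ratio, and the counting interval lay above 0 in 12 of them. At Vnn1 the 6 regions ran from 0.49 to 2.08, and 1 was past 2-fold. At Fkbp5, whose locus at 0.46 stayed under the 1.5-fold threshold, 32 of 33 regions were above 0 after centring, up to 2.12 in the intronic region. The counting interval lay above 0 in 17 of them. Regions with 27 and 26, 64 and 63, 177 and 170, and 23 and 22 tags in fed and fasting were above 0 only through the centring. At G6pc, the last enzyme of glucose release, 9 of 16 regions were above 0 after centring, with a median of 0.05. A region 11582 bp from its start had 79 tags in fed and 189 in fasting. At Kap 15 of 17 regions were lower in fasting, down to −1.31.

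**Figure D3:**
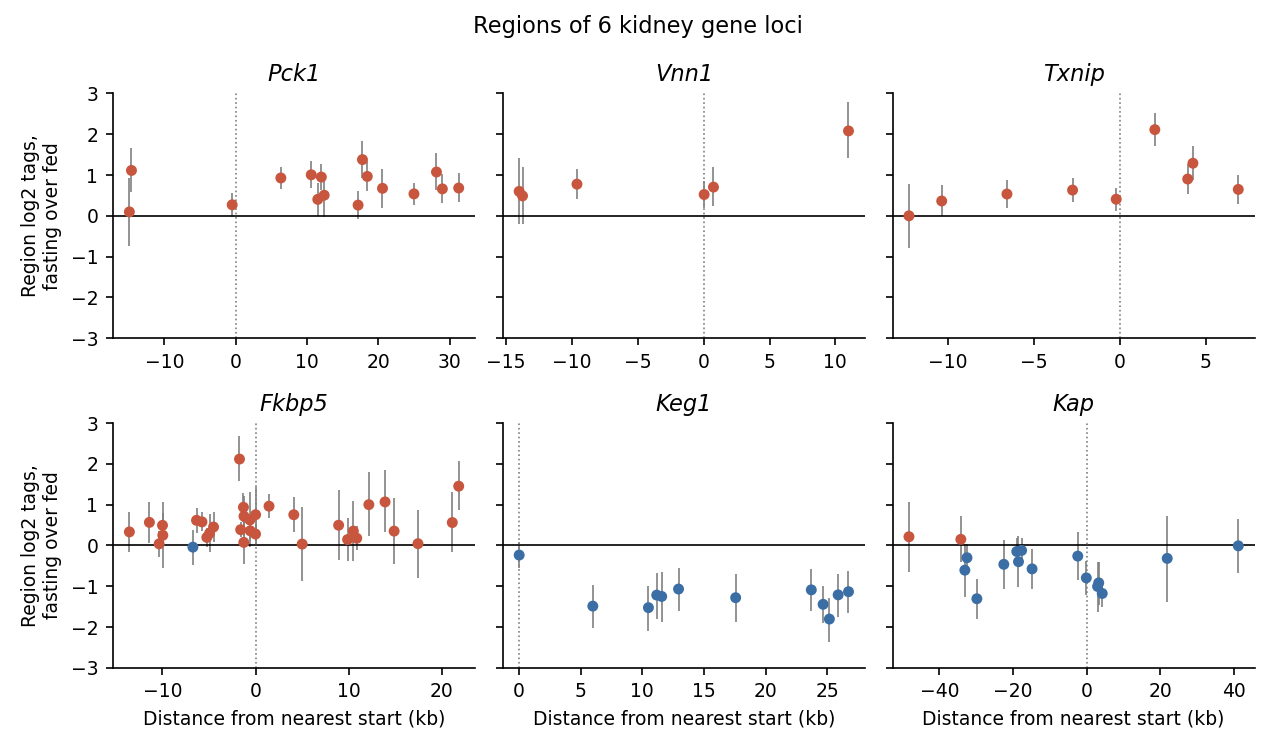
Log2 ratio of fasting over fed summit tags (y axis) of each shared region against its distance from the gene's start (x axis, kb), for 6 loci, with exact counting intervals as bars. All 16 regions at Pck1 lie above 0, 32 of 33 do at Fkbp5, and all 12 at Keg1 lie below 0.

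The expected tags differed at most of these loci as well. For each peak the caller estimated the tags expected from the local background, whose median over all shared regions was 7.96 in fed and 7.72 in fasting. This background is estimated from the same library around the same peaks, so it is not a separate measure of the surroundings. At Txnip the median expected number was 26.4 in fed and 60.8 in fasting, at Pck1 23.4 and 43.9, at Vnn1 5.63 and 9.91, and at Fkbp5 12.2 and 21.3. At Keg1 it was 42.1 and 13.4, and at Kap 21.6 and 13.7. G6pc was level, with 29.9 and 30.7. Fold and rank are taken over this background, so they understate a difference that the background shares.

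Genes of fatty acid oxidation, ketone bodies and PPARA targets were on the fasting side. Of 25 genes, 18 had a measured locus, 16 of these were above 0, 2 were past 1.5-fold with Vnn1 among them, and the median log2 ratio was 0.18 against 0 over all loci. Acot1 was at 0.56, Hadhb at 0.52 and Angptl4, a secreted lipase inhibitor, at 0.52, below the threshold. Of 197 tested regions near these genes, 13 were 2-fold higher in fasting and 2 in fed, against 0.927% and 1.68% of all tested. Cyp4a14 had 32 tags in fed and 100 in fasting 73 bp from its start, and a region of Cyp4a10 had 61 and 138. Acat1, which makes and breaks acetoacetyl-CoA, held both fed-higher regions, with 116 and 52 tags and 76 and 32. There were 122 fasting-only and 31 fed-only regions near these genes, against 28425 and 24076 over all genes. With both lists cut at the same p the counts were 101 and 39, against 20538 and 27408.

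Glucocorticoid and FOXO targets were on the same side. Of 17 measured loci 15 were above 0 and the median was 0.22, with Txnip past the threshold. Zbtb16, a transcription factor gene induced by glucocorticoids, was at 0.58 and Fkbp5 at 0.46. Of 256 regions 11 were 2-fold higher in fasting and 0 in fed, against 0.927% and 1.68% of all tested. Tsc22d3, which encodes the glucocorticoid-induced leucine zipper protein, had a region with 25 tags in fed and 86 in fasting 15204 bp from its start. Fasting-only regions numbered 91 and fed-only regions 37 near these genes, or 69 and 46 at the same p, against 28425 and 24076, or 20538 and 27408, over all genes. The medians of both lists stayed above 0 with background scaling.

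Gluconeogenesis and ammoniagenesis moved at few genes. Pck1 and Slc38a3 were past the threshold among 13 measured loci, the median was 0.05, and it became −0.02 with background scaling. Of 195 regions 7 were 2-fold higher in fasting, 4 of them at Pck1, and 2 in fed, against 0.927% and 1.68% of all tested. Slc7a8 and Slc16a1, an amino acid and a monocarboxylate transporter gene, each had a region 2-fold higher in fasting.

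No locus of lipid synthesis was past the threshold. The median locus ratio was −0.07 over 12 fatty acid synthesis genes and −0.04 over 10 cholesterol genes. At −0.33, Idi1, an enzyme of isoprenoid synthesis, was the lowest of the cholesterol genes. Its intergenic region shown above had 91 tags in fed and 21 in fasting, a log2 ratio of −2.02, and another had 48 and 20. These lay 26513 and 18693 bp from its start, and 65.7% and 65.2% of their 201 bp windows were repeat-masked. Sqle, which makes squalene epoxide, had a fed-higher region with 45 and 21 tags. No region near cholesterol genes was 2-fold higher in fasting, and 4 of 120 were in fed, against 0.927% and 1.68% of all tested. Of 145 regions near fatty acid synthesis genes, 2 were 2-fold higher in fasting and 1 in fed, beside the same shares. The 2 were at Gpam (59 and 118 tags) and Mlxipl (22 and 46). Fasting-only and fed-only regions numbered 30 and 41 near fatty acid synthesis genes, or 19 and 49 at the same p, against 28425 and 24076, or 20538 and 27408, over all genes. Near cholesterol genes they numbered 26 and 26, or 21 and 31 at the same p.

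Androgen-responsive kidney genes were on the fed side. The median over 5 loci was −0.15, with 1 above 0. Kap, the androgen-regulated protein abundant in male proximal tubule, had 1724 tags in fed and 1129 in fasting, a log2 ratio of −0.53 that stayed under the threshold. Its regions had 254 and 105 tags, 135 and 51, and 73 and 34. Slc7a13, a cystine and glutamate transporter gene of the straight proximal tubule, had 4 regions 2-fold higher in fed and a locus at −0.36. Of the windows 46684 and 12610 bp from its start, 70.6% and 62.7% was repeat-masked, against 10.9% and 21.9% of the others. In all, 0 of 58 regions near these genes were 2-fold higher in fasting and 7 in fed, against 0.927% and 1.68% of all tested. Fasting-only regions numbered 11 and fed-only 23, or 5 and 30 at the same p, beside the same counts over all genes.

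Of the other lists, the integrated stress response had a median locus ratio of 0.16 (0.09 with background scaling), with 4 of 6 loci above 0. The circadian clock had a median of 0.12 (0.05 with background scaling), with 12 of 14 loci above 0. The median was 0.05 for immediate early genes, 0.05 for salt and water handling, 0.02 for transport and 0.01 for nephron transcription factors. None of their loci was past the threshold. Scnn1a, a subunit of the epithelial sodium channel, was the highest at 0.45, and Slc7a11, the cystine exchanger, the lowest at −0.45. Of the 20 nephron transcription factor genes, Esrrg, Nr1h4, Nr3c1, Tfap2a and Foxi1 had regions 2-fold higher in fasting, 6 of 328 against 0.927% of all tested, and none had one in fed. With background scaling the list medians between 0 and 0.07 became negative, and 12 of 23 list medians kept their sign.

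**Figure D4:**
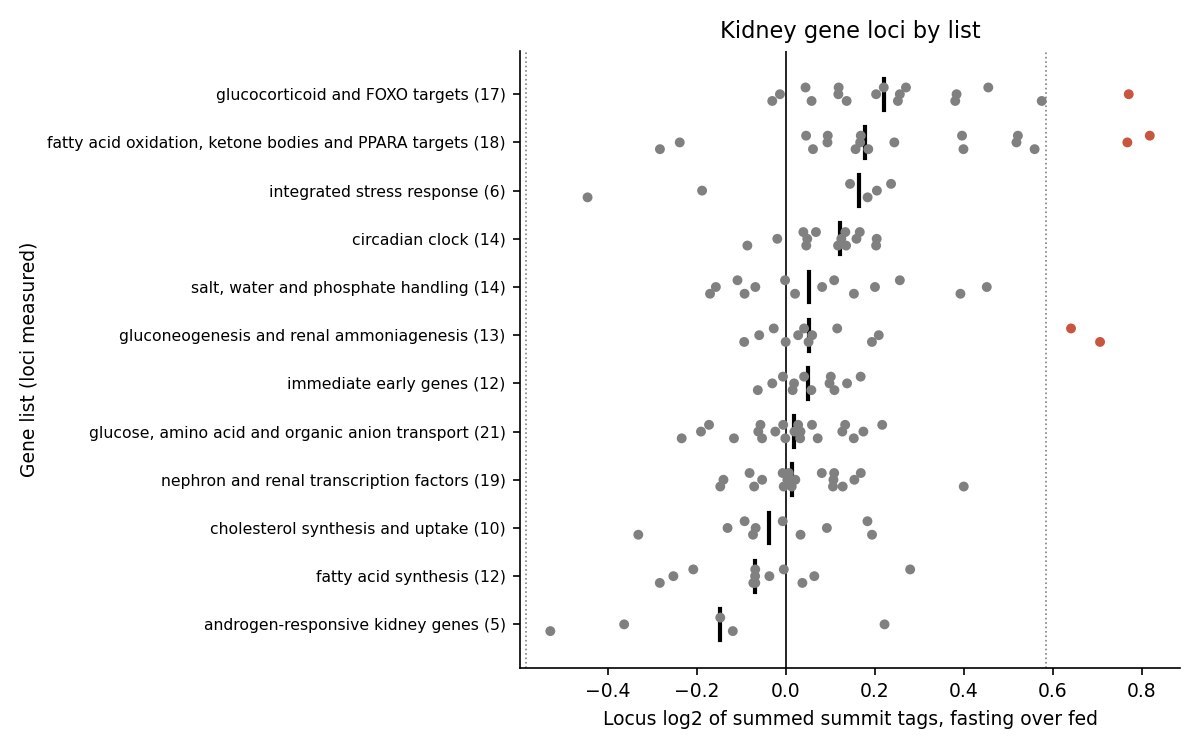
Log2 ratio of fasting over fed tags per gene locus (x axis, points) for each gene list (y axis), with the list median as a bar and dotted lines at 1.5-fold. The medians of the glucocorticoid and FOXO targets (0.22) and of the fatty acid oxidation and PPARA list (0.18) are the highest, and that of the androgen-responsive genes (−0.15) the lowest.

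Ranks of promoters were similar in both states. Over 16449 promoters, the shift of rank from fed to fasting had a median of 0.08 and an SD of 7.79. It was at least 10 points up in 859 (5.22%) and down in 668 (4.06%). None of the fatty acid oxidation, glucocorticoid, gluconeogenesis and lipid synthesis genes shifted by 10 points. The median fed rank of these lists ran from 91.1 (fatty acid synthesis) to 96.4 (cholesterol synthesis). Many of their promoters therefore had no room to rise by 10 points. Comparing them with the genes below cannot separate a shift from the starting rank. Shifts past 10 points were found at genes of less common kidney cells. Foxi1, the master regulator of intercalated cells, moved by 59.4 points on 16 tags in fed and 34 in fasting. Atp6v0d2, a proton pump subunit of the same cells, moved by 23.3, and the collecting duct genes Aqp2 and Avpr2 by 14.7 and 17.5. Cldn16 and Trpm6, of magnesium transport, moved by 24.2 and 12.01, and Lhx1 by 10.6.

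Downward shifts were found at Pvalb of the distal convoluted tubule (−29.8), the podocyte gene Nphs1 (−13.7), Plvap (−14.0) and Acta2 (−15.1) of vessels, and Ptprc (−12.2) and Lyz2 (−17.6) of leukocytes. Wt1 (11.1) and Kdr (12.9), of podocytes and endothelium, moved the other way. Of 6 podocyte promoters, 2 fell by at least 10 points and 1 rose, and the lowest rank on this list was 32.9 in fed and 2.94 in fasting. Pvalb, Ptprc and Lyz2 had no fasting promoter peak, so these shifts are the fed ranks of peaks of 22, 18 and 19 tags. The liver gene Alb had no promoter peak in fed and one of 27 tags in fasting, and Cidec and Lep of adipocytes shifted by 36.1 and −10.5. Slc7a11 shifted by −34.6 points and Cyp4a12a by 14.6. The part of changing cell numbers in these shifts was not tested.

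Counts of state-only regions nearest to a gene are read against 28425 fasting-only and 24076 fed-only regions over all genes. Nedd4l, the ubiquitin ligase that removes the epithelial sodium channel, had 38 fasting-only and 20 fed-only regions nearest to it. Fam107b had 24 and 6, Arhgef3 24 and 7, Foxn3 21 and 4, Pdzd2 21 and 4, Ankrd44 19 and 3, and Slco3a1 19 and 3. Pde4d, Ank3 and Gramd1b were also on this side, with 47 and 30, 27 and 11, and 24 and 8. The locus ratios of the genes on this side were small, from 0.01 at Pdzd2 and 0.07 at Nedd4l to 0.19 at Slco3a1. In the other direction Zbtb20 had 30 fasting-only and 51 fed-only regions and Trps1 4 and 19, with a locus ratio of −0.36 at Trps1. Akr1c14, a steroid-reducing enzyme gene, had 1 and 10 with a locus ratio of −0.43, and Slc22a28 had 3 and 14. Fndc3a (1 and 12), Mllt3 (2 and 12), Glis3 (12 and 24), App (6 and 16), Gsk3b (9 and 19) and Pam (4 and 14) completed the group. Akr1c14 had the lowest locus ratio on this side, while Glis3 (−0.04), Gsk3b (−0.04) and Pam (−0.09) were near 0. With both lists cut at the same p, where all genes had 20538 and 27408, each of these 20 genes kept its direction. The genes were picked by their excess in these same lists, so this is not an independent check. Nedd4l then had 30 and 22, Pde4d 36 and 31, Fam107b 18 and 8, Zbtb20 19 and 58, and Trps1 2 and 22.

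Sequence around the summit was then examined with 10 motifs on both strands, within 100 bp of the summit. The glucocorticoid receptor palindrome was found in 29 of the 978 regions 2-fold higher in fasting, or 2.97% (1.99 to 4.23), in 11 of the 1768 higher in fed, or 0.622%, and in 0.706% of all tested regions. Among the 745 shared regions with the palindrome the median log2 ratio was 0.12, and 3.89% were 2-fold higher in fasting, against 0.906% of those without it. The Fkbp5, Cuedc1 and Trim2 sequences above are members of this group. The PPAR/RXR direct repeat was in 19 of the 978 fasting-higher regions, or 1.94% (1.17 to 3.02), against 0.735% in fed-higher and 0.834% in all tested regions.

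The AP-1 site, TGANTCA, was in 13.8% (11.7 to 16.1) of fasting-higher, 6.56% of fed-higher and 6.80% of all tested regions. The forkhead site was in 3.99%, 3.68% and 2.82%, and the HNF4 site, CAAAGTCC, in 3.48%, 2.77% and 3.19%. The CTCF core (CCAC, 1 base, AGNNGGC) was in 1.12%, 1.47% and 3.95%, and the NRF1 site (GCGCA, 1 base, GCGC) in 0.102%, 0.170% and 1.16%. Both were lower in regions that differed in either direction, but these shares were not matched for rank. In shared fed regions CTCF rose from 1.26% below rank 20 to 5.29% at ranks 60 to 80, and NRF1 from 0.118% to 0.274%. A difference by rank therefore cannot be told apart from one by tag ratio. The E-box was in 3.99%, 2.09% and 4.08%. The HNF1 site (GTTAAT, 1 base, ATTAA) was in 0%, 0.226% and 0.230%, and the ESRRA site, TCAAGGTCA, in 0.613%, 0.452% and 0.631%.

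**Figure D5:**
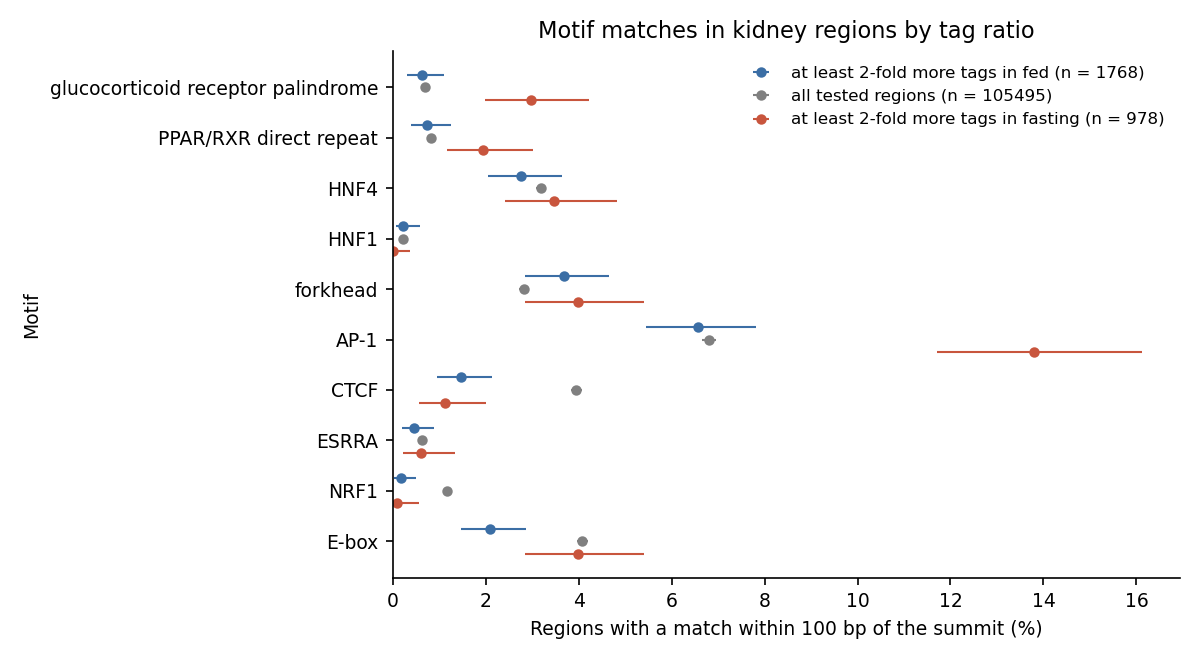
Share of regions with each motif within 100 bp of the summit (percent, with 95% exact binomial intervals) in regions 2-fold higher in fasting, 2-fold higher in fed, and all shared regions tested. The intervals of fasting-higher regions lie above those of both other groups for the glucocorticoid receptor palindrome (2.97%, 0.622% and 0.706%) and AP-1 (13.8%, 6.56% and 6.80%).

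Among state-only regions the palindrome was in 0.834% of fasting-only and 0.518% of fed-only regions, and AP-1 in 8.32% and 6.77%. Below rank 20, which held 19959 of the 34907 fasting-only regions, the palindrome was in 0.611% (0.508 to 0.729) of them and in 0.565% (0.447 to 0.704) of shared fasting regions of the same ranks, so the intervals overlapped. At ranks 20 to 40 it was in 1.12% (0.941 to 1.33) of fasting-only and 0.686% (0.581 to 0.804) of shared fasting regions. At ranks 40 to 60 the shares were 1.14% (0.788 to 1.58) and 0.721% (0.630 to 0.822), also with overlapping intervals. In fed-only regions they were 0.530%, 0.490% and 0.537% at these ranks. AP-1 was in 7.68%, 8.85% and 10.3% of fasting-only regions at these ranks, against 6.75%, 6.81% and 7.23% of shared fasting regions and 6.77%, 6.87% and 6.41% of fed-only regions. Base composition differed too. The median GC content of the 201 bp was 49.8% in fasting-only, 47.3% in fed-only and 50.7% in shared regions, and 44.3% in 2-fold fed-higher against 51.2% in 2-fold fasting-higher regions. Windows of which at least 50% was repeat-masked made up 6.62% of fasting-only, 8.59% of fed-only and 4.22% of shared fed regions. The part of GC content and repeats in the fed-only regions was not tested.

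The other 7 tissues, whose libraries had no part in choosing the kidney regions, gave the only test. In each tissue the share of kidney fasting-only regions overlapped by its fasting list, minus the share overlapped by its fed list, was set against the same difference for kidney fed-only regions. The difference of the 2 differences was above 0 in 7 of 7 tissues, with a mean of 1.65 percentage points (SD 0.791, n = 7). A two-sided exact permutation test that flips the signs of the tissues gave p = 0.015625, the smallest this design can give. It ran from 0.557 points in spleen and 0.653 in heart to 1.49 in muscle, 1.82 in lung, 2.25 and 2.26 in brown and white adipose, and 2.53 in liver. The single differences did not all go with the state. Fasting lists overlapped fewer fasting-only regions than fed lists in brown (23.05% and 25.6%) and white adipose alone (23.6% and 25.6%). In liver alone the fasting list overlapped more fed-only regions than the fed list (17.4% and 15.4%). The test used the whole lists of these tissues, which end at different −log10 q, for brown adipose at 5.26 in fed and 0.65 in fasting. With their lists held to a −log10 q of at least 2 the mean was 1.56 points. The tissues of a state came from the same mice, so the p speaks of these pools.

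A larger share of fed-only than of fasting-only regions was seen in kidney alone. No list of another tissue overlapped 40.4% (39.9 to 41.0) of fed-only regions, against 28.1% (27.6 to 28.6) of fasting-only and 16.5% to 17.0% of shared regions. The 13 loci called higher in fasting kidney had 36 values in other tissues, and 29 of these were above 0, with a median log2 ratio of 0.30. For the 22 loci called higher in fed kidney, 21 of 48 values were above 0, with a median of −0.11. In each tissue the ratios were centred on the median of all its loci, where as many loci lie above 0 as below. The values are not independent. The neighbours Gm16253 and Txnip gave 4 and 7 of the 36 values, with 4 and 6 above 0, and the tissues came from the same mice. Pck1 was at 0.73 in liver, 0.61 in white adipose and −0.47 in muscle. Txnip ran from −0.06 in spleen to 0.82 in heart. Slc38a3, at 0.64 in kidney, was below 0 in 3 of 3 other tissues. Fkbp5 was above 0 in 7 of 7, up to 1.24 in brown adipose, and Keg1 and Kap had no measured locus elsewhere.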

How the data were processed

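ATAC-seq was performed on nuclei of pooled frozen kidney, 1 library a state, and 14 libraries of 7 other tissues were used for 1 test. Per the study's methods and the submitters' processing notes, the authors aligned reads to GRCm38 with Bowtie2 and called peaks with MACS2 in a Kundaje laboratory pipeline. The study took regions at q under 0.01 as significant. Not all deposited lists end there, and the lowest −log10 q was 0.65 in fasting brown adipose and 0.85 in fed heart. No tool versions were given in the sources used here. The fold enrichment in the deposited lists is a ratio that the authors obtained from MACS2 as summit tags plus a pseudocount of 1 over expected tags plus 1. The deposited −log10 p and −log10 q come from the authors' Poisson test within a library, and neither is scaled between libraries. The lists hold peaks, not reads, and no total read count, so depth was read from the tags expected at random.

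Tags were solved from fold and p, and came out whole within 0.001 in 100% of kidney rows. Ratios used the highest summit of each merged region, were centred on the median of shared regions, and required 30 tags in the higher library. Loci used regions within 50000 bp of the nearest protein-coding start and at least 5 regions. Intervals are 95% exact binomial or Poisson. They cover counting error only, since summit tags are pileup values and not independent molecules. Starts and features came from GENCODE vM21, and sequences from RefSeq GRCm38.p6.

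Named were Umod and Slc34a1. From the gene lists came genes with a promoter shift of at least 10 points, with a called locus, or highest or lowest of their list. The rule added the genes nearest the 10 strongest state-only regions, the 10 largest ratios, loci and state-only excesses in each direction. Regions of Fkbp5, Tsc22d3, Cyp4a14 and others past 2-fold near list genes, and the regions of Cuedc1, Trim2 and Ptpn1 (shown for their motifs) were picked after their values were seen, as was the comparison of local expected tags. Some items that the rule would name are not reported here. Members and lists were chosen with earlier results of these data known. Alternatives varied the q threshold, list length, overlap, scaling, tag minimum, windows and tissues. Lists cut at the same p, leaving out repeat-masked summits and centring by tag level were added after seeing the data. Steps were tested on simulated data. Python 3.11.15, pandas 2.3.3, NumPy 2.4.6, SciPy 1.17.1, pysam 0.24.0, matplotlib 3.10.9 and bedtools 2.31.1 were used.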

Additional observations from a re-analysis of the deposited data

How the results depend on the processing

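Fasting-only regions numbered 6061 at a −log10 q of at least 6, 30 among the 50000 regions of smallest p, 53347 with 50% reciprocal overlap and 18486 with tags thinned to 80%. Fed-only regions numbered 10311, 61, 50207 and 22998 under these. In the thinning, only the list being counted was thinned and then cut at a −log10 p of 5, while the other list stayed whole. The order of the states was reversed there too, which cannot be told apart from the effect of that cut. Regions 2-fold higher in fed numbered 1146 with at least 50 tags. Summing tags over rows gave 5890 regions 2-fold higher in fasting and 7021 in fed. Loci 1.5-fold higher numbered 8 in fasting and 43 in fed with background scaling, 6 and 7 with regions within 10000 bp, and 1 and 1 with at least 10 regions. The difference in promoter share was 2.48 points (1.44 on either side) at a −log10 q of at least 6, past counting error. The cause of these moves was not tested beyond the stricter limits leaving fewer regions. The mean over the other tissues ran from 1.51 to 1.83 points when each tissue was left out, where 0.03125 is the smallest p possible, and was 1.18, 1.56, 1.72 and 2.70 under the other alternatives. No paired analysis was possible because each state has 1 kidney library and every label carries the same replicate number. Depth limits regions under 30 tags, where the need for a peak in both lists cuts off large ratios.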
